A study of Caenorhabditis elegans with 2 samples.

Results

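The genes described here are 6 housekeeping genes of Caenorhabditis elegans, out of 19973 protein-coding genes on the 6 nuclear chromosomes: the α-tubulin genes tba-1 and tba-2, the β-tubulin genes tbb-1 and tbb-2, the chaperone gene hsp-1 and the respiratory chain gene cyc-1. The first of the α-tubulins, hsp-1 and cyc-1 were chosen by their signal in the main peak list, where each had a peak, and the other 3 were added as tubulins that are also widely expressed. Their strength in that list is therefore a description, and no test was made on it. For each gene, every peak summit between 2000 bp upstream of the annotated 5′ end and the 3′ end was taken, and a gene said to have a summit is one with a summit in that window.

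The study mapped chromatin precipitated through the transcription factor UNC-3 in whole late embryos, labelled 2.5 h and staged by egg bleaching. All samples were of strain RW12259, in which a CRISPR insertion fused UNC-3 to TY1, EGFP and 3xFLAG tags, and 2 biological replicates formed the only group. The description names an anti-GFP antibody while the antibody field names unc-3, and the labels place the tagged allele on chromosome II although the annotation has unc-3 on X. Chromatin was sonicated to 200 to 800 bp, no control library was used here, and the lists used give no read counts. Library depth is therefore unknown, and no background from unprecipitated chromatin stands beside a peak.

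Microtubules are polymers of α- and β-tubulin pairs and form the mitotic spindle as well as the tracks of axonal transport. hsp-1 encodes the cytosolic HSP70 chaperone that is made without heat stress, and cyc-1 encodes cytochrome c1 of mitochondrial complex III. UNC-3 belongs to the COE (Collier/Olf/EBF) transcription factors and is best known for switching on the mature gene programme of motor neurons that release acetylcholine, whereas the 6 genes here are used by nearly every cell.

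Windows of sequence around 3 summits show what lay under peaks upstream of genes with a main peak, with only a lower ranked peak, and with a peak in 1 replicate. Each holds 151 bases of the RefSeq genome WBcel235, written 5′ to 3′ along the strand of the gene, with the summit at the central base. Capitals mark matches to the searched words GAGAGA and TGATAA on either strand, so that GAGAGA appears as TCTCTC where the match lies on the other strand. The hsp-1 window is that of its main peak (chrIV:17278518-17278668, plus strand), the tbb-1 window that of its strongest summit in the list for both replicates (chrIII:10742651-10742801, minus strand), and the tbb-2 window that of its strongest summit in replicate 1 (chrIII:4017766-4017916, minus strand).
hsp-1: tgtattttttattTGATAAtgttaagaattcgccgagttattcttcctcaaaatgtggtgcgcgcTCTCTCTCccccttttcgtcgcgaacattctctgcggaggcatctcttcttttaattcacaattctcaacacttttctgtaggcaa
tbb-1: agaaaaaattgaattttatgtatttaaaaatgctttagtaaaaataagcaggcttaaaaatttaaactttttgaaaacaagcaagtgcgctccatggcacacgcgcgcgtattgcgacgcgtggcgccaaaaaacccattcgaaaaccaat
tbb-2: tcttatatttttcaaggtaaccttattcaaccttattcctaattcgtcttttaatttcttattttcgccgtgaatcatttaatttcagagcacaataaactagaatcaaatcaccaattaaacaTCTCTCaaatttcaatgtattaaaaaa
The hsp-1 window holds 2 overlapping GAGAGA matches close to the summit and 1 TGATAA, the tbb-2 window holds 1 GAGAGA, and the tbb-1 window holds none of the words searched.

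The main list is the one the authors named conservative, with 631 peaks of median width 264 bp, and a second thresholded list for both replicates held 622. The ranked list for both replicates held 30297 peaks, and the ranked lists of replicate 1 and replicate 2 held 33914 and 34079. Signal is the deposited strength of a peak, in a unit that the sources used here do not give. Its median was 81.5 in the main list and 26.8 in the ranked list for both replicates. All 631 main peaks were also in that ranked list, and those of the genes here had the same signal in both. Medians were 16.0 in replicate 1 and 14.1 in replicate 2, below that of the ranked list for both. Signal is therefore set side by side only within a list, and lists are compared by rank (rank 1 being the highest signal). The irreproducible discovery rate (IDR) is a measure of how well a peak's rank repeats between compared lists of peaks, and a larger value on the −log10 scale is better. The ranked list of each single replicate carries an IDR as well, and the 2 ranked lists for both replicates can give the same peak different values. It is therefore not read here as agreement between replicate 1 and replicate 2 alone.

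In the main list, 3 of the 6 genes had a summit in their window, against 3.59% of all protein-coding genes, and nothing is read from this share since the list chose the genes. The cyc-1 main peak lay just inside an IDR of 0.01, which is 2 on the −log10 scale, with 2.36 in the ranked list for both replicates. In that list 779 peaks had 2 or more, and 148 of them were not in the main list, so passing the limit does not settle membership. The strongest summit of tba-2 lay just outside that limit, at 1.89 in the same list. A second ranked list for both replicates, of 27217 peaks, had the reverse order, with 2.47 for tba-2 and 2.18 for cyc-1. The tba-2 summit was in the second thresholded list, in which 4 of the 6 genes had a summit, against 3.52% of all genes. The thresholded list of replicate 1 held a summit for 1 of the 6 genes, hsp-1, and that of replicate 2 for 1 other, tba-1, each against 2.06% of all genes. In the ranked lists all 6 genes had a summit, as did 64.6% of all genes in the list for both replicates, 74.1% in replicate 1 and 74.7% in replicate 2, so the presence of a ranked peak by itself is common.

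**Figure D1:**
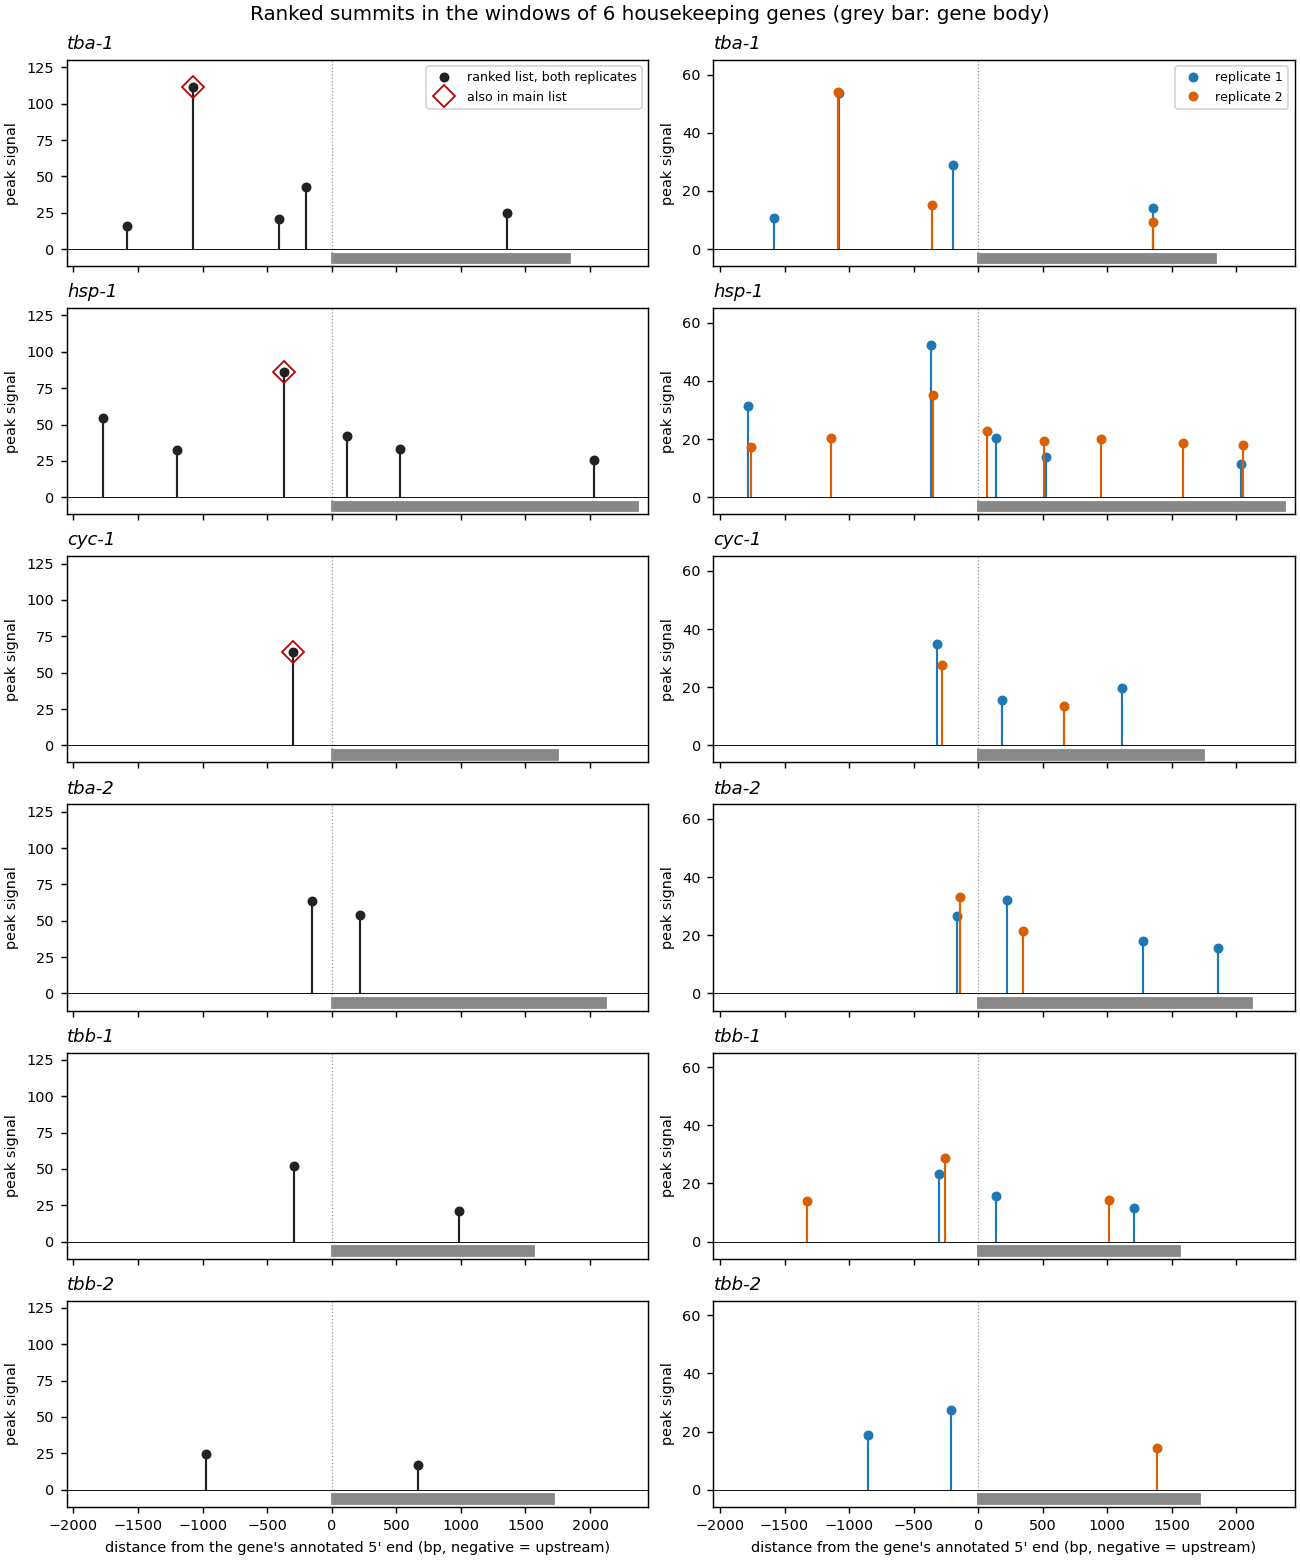
Every summit in the windows of the 6 genes by distance from the annotated 5′ end in bp (horizontal) and deposited signal (vertical), in the ranked lists of both replicates together and of each replicate. Main peaks are red diamonds, and tba-1 at 1076 bp upstream with signal 112, hsp-1 at 366 bp and cyc-1 at 302 bp have one each.

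tba-1, 1 of the α-tubulin genes (WBGene00006528, chromosome I, 9785781 to 9787624, minus strand), had the highest summit of the 6 genes, but that summit lay by another gene. It was at 9788700, 1076 bp upstream of the tba-1 5′ end and 25 bp upstream of the 5′ end of cox-5B, a divergent neighbour that encodes a subunit of cytochrome c oxidase (complex IV). Its peak spanned 9788568 to 9788831, with the summit between protein-coding genes and the end past the cox-5B 5′ end at 9788725. The signal was 112 in the list for both replicates, rank 257 of 30297 and rank 165 of the 631 main peaks, with a −log10 IDR of 4.15. Replicate 1 gave 53.7 at rank 301 and replicate 2 gave 54.0 at rank 296, with summits 9 bp apart. The replicates thus placed it at nearly the same rank and base, although only replicate 2 had it in its thresholded list, at rank 189. Its −log10 IDR was 1.9 in the ranked list of replicate 1, just below 2, and 3.66 in that of replicate 2. The nearest tRNA, snoRNA or snRNA gene was 37364 bp away, and the non-coding RNA gene F26E4.16 lay 521 bp away inside cox-5B.

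The summit nearest to tba-1's own 5′ end was much weaker and was placed differently by the replicates. It lay 198 bp upstream with signal 42.8, rank 2373, and a −log10 IDR of 0.16. Replicate 1 had it there with 28.9 at rank 1429, while the overlapping replicate 2 peak had its summit 361 bp upstream, with 15.3 at rank 13394. A further summit 411 bp upstream (20.5, rank 22783) overlapped the same replicate peaks. The remaining tba-1 summits were low in every list: 1 in its coding exon 1356 bp downstream of the 5′ end (24.95, rank 17769) and 1 in an intron of cox-5B 1584 bp upstream (15.8, rank 25434), for which replicate 2's ranked list held no peak. The gene has 2 annotated 5′ ends, at 9787624 and 9787390, and such ends in worms often mark where a leader is trans-spliced onto the RNA, not where transcription begins.

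tba-2, the other α-tubulin gene (WBGene00006529, chromosome I, 12964674 to 12966795, minus strand), had 2 summits of similar signal on either side of its 5′ end. The upstream one, at 12966949 and 154 bp upstream, had signal 63.4 at rank 722 for both replicates, and it was 26.6 at rank 2053 in replicate 1 and 33.1 at rank 684 in replicate 2. The intronic one, at 12966573 and 222 bp downstream, had signal 54.1 at rank 1018, and it was 32.2 at rank 961 in replicate 1 and 21.3 at rank 3493 in replicate 2. The replicates therefore disagreed on which of the pair was the stronger, and the replicate summits lay 29 bp apart at the first and 122 bp apart at the second. The second annotated 5′ end of tba-2 is at 12966271, downstream of both summits. The neighbour on the same strand, the proteasome subunit gene pbs-2, ends 420 bp upstream of tba-2, and no short RNA gene lay in the window. Replicate 1 alone had further peaks in coding exons 1279 bp downstream (18.2, rank 11372) and 1854 bp downstream (15.5, rank 18438).

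tbb-1, a β-tubulin gene (WBGene00006536, chromosome III, 10740868 to 10742432, minus strand), shares its upstream sequence with the divergent gene rib-2, which encodes a glycosyltransferase of heparan sulfate synthesis and starts 378 bp away. Its strongest summit, at 10742726, lay between them, 294 bp from the tbb-1 5′ end and 84 bp from that of rib-2. The signal was 51.8 at rank 1142 for both replicates, 23.3 at rank 3927 in replicate 1 and 28.8 at rank 992 in replicate 2, with replicate summits 41 bp apart. Replicate 2 thus ranked it well above replicate 1, and with a −log10 IDR of 1.18 it was in none of the thresholded lists. The second ranked list for both replicates, of 27217 peaks, gave the same peak a −log10 IDR of 0.09. A summit in its coding exon 986 bp downstream was below the median signal of the list for both replicates (21.1, rank 22231). Each replicate alone had further weak peaks, in replicate 1 at 141 bp downstream (15.8, rank 17589) and in replicate 2 in a rib-2 coding exon 1323 bp upstream (13.8, rank 17905).

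tbb-2, the other β-tubulin gene (WBGene00006537, chromosome III, 4015910 to 4017627, minus strand), had the lowest strongest summit of the 6 genes in the ranked list of 30297 peaks for both replicates. Its 2 summits there were 970 bp upstream with signal 24.6 at rank 18256 and 666 bp downstream in its coding exon with 17.2 at rank 24809. Neither replicate's ranked list held a peak at the second, and only replicate 1 had one at the first (18.9, rank 9815). The strongest peak of replicate 1 lay elsewhere, 214 bp upstream of the 5′ end, with signal 27.3 at rank 1856, while the only peak of replicate 2 was 1384 bp downstream with 14.3 at rank 16334. The second ranked list for both replicates, of 27217 peaks, held a summit near that of replicate 1, 219 bp upstream with signal 30.7 at rank 9948, which the longer list did not hold. No tbb-2 summit was therefore found in both replicates' lists at one place. A piRNA gene, 21ur-13952, lies inside tbb-2, and a non-coding RNA gene, C36E8.10, starts 490 bp upstream.

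hsp-1 (WBGene00002005, chromosome IV, 17278959 to 17281330, plus strand) had a main peak upstream of its own 5′ end and several weaker summits along its body. The main summit, at 17278593 in a peak from 17278461 to 17278724, lay 366 bp upstream and 91 bp from the non-coding RNA gene F26D10.23. Its signal was 86.4 for both replicates, rank 403 of the ranked list and rank 278 of the main list, with a −log10 IDR of 3.42. Replicate 1 gave 52.3 at rank 314 and replicate 2 gave 35.1 at rank 599, with summits 14 bp apart. Replicate 1 was the higher by rank, and only its thresholded list held the peak, at rank 199. The −log10 IDR of the peak was 2.87 in the ranked list of replicate 1 and 1.96, just below 2, in that of replicate 2. The snoRNA gene F26D10.24 lies in an intron of hsp-1 (17280046 to 17280169), 1453 bp from the main summit.

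The other hsp-1 summits were lower in every list. One lay 1769 bp upstream in a coding exon of clec-196, a C-type lectin gene, with signal 54.2 at rank 1017 for both replicates, 31.5 at rank 1032 in replicate 1 and 17.2 at rank 8902 in replicate 2. In all, 3 lay in hsp-1 coding exons, 116 bp downstream (42.1, rank 2582), 527 bp downstream (33.3, rank 7402) and 2034 bp downstream (25.3, rank 17204). All 3 were in both replicates' lists, and replicate 2 ranked each of them higher than replicate 1 did. Replicate 2 alone had 2 more in coding exons, of which the one 950 bp downstream (20.0, rank 4672) was 137 bp from the snoRNA gene. A summit 1198 bp upstream (32.4, rank 8283) had a peak in replicate 2 but none in the ranked list of replicate 1.

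cyc-1 (WBGene00000869, chromosome I, 8022674 to 8024422, minus strand) had 1 summit in the list for both replicates, which was a main peak. It lay at 8024724, 302 bp upstream of the 5′ end, in a peak from 8024592 to 8024855 that fell in the 457 bp between cyc-1 and the end of C54G4.9 on the same strand. The signal was 64.2, rank 700 of the ranked list and rank 508 of the main list. Replicate 1 gave 34.9 at rank 765 and replicate 2 gave 27.5 at rank 1167, with summits 36 bp apart. Neither replicate's own thresholded list held it, although both ranked it among their upper peaks. In coding exons of cyc-1, replicate 1 alone had 19.6 at rank 8493 and 15.7 at rank 17758, and replicate 2 alone had 13.6 at rank 18508. No short RNA gene lay in the window, and C54G4.7 overlaps the 3′ end of cyc-1 on the opposite strand.

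**Figure D2:**
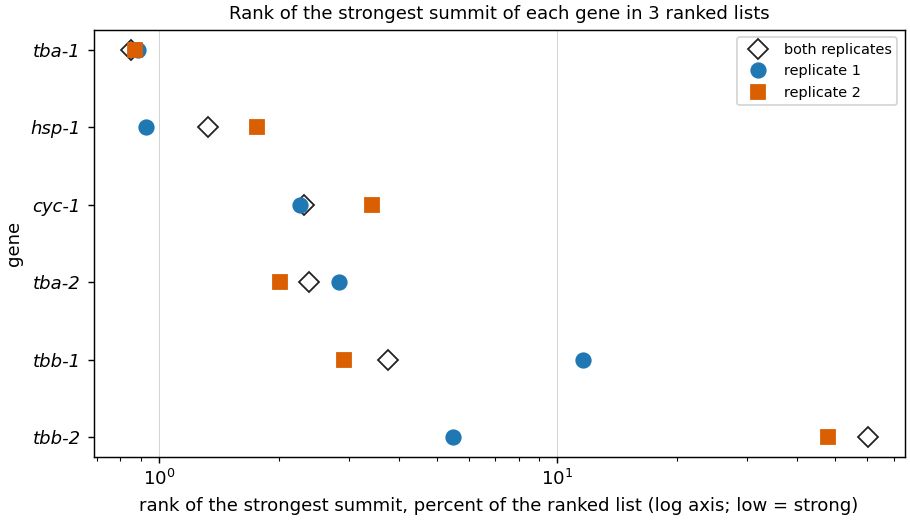
Rank of the strongest summit of each gene as a percent of the ranked list (log axis, low being strong), for both replicates and for replicate 1 and replicate 2. tba-1, by its summit at the cox-5B 5′ end, is first of the 6 in all 3 lists, at 0.848%, 0.888% and 0.869%. tbb-2 moves from 5.47% in replicate 1 to 47.9% in replicate 2.

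By their strongest summit for both replicates, the order was tba-1, hsp-1, cyc-1, tba-2, tbb-1 and tbb-2, with tba-1 and hsp-1 first and second in each replicate as well. The place of tba-1 rests on the summit 25 bp from the cox-5B 5′ end. Its summit nearest to its own 5′ end had 42.8, below the strongest summits of tba-2 and tbb-1. The tbb-1 summit was likewise nearer to another gene, 84 bp from the rib-2 5′ end. cyc-1 and tba-2, at 64.2 and 63.4, did not keep their order between replicates, since cyc-1 was the higher in replicate 1 (34.9 against 32.2) and tba-2 in replicate 2 (33.1 against 27.5). The tba-1 and hsp-1 summits were close in replicate 1 (53.7 and 52.3) and apart in replicate 2 (54.0 and 35.1). tbb-1 and tbb-2 changed places between the replicates, being 23.3 and 27.3 in replicate 1 and 28.8 and 14.3 in replicate 2. The order of the first pair and of the last pair thus had different support: tba-1 was higher than hsp-1 in both replicates, and tbb-1 higher than tbb-2 in only 1.

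Set against all protein-coding genes, a strongest summit as high as that of tba-1 was found in the windows of 1.04% of genes for both replicates, 1.21% in replicate 1 and 1.09% in replicate 2. That tba-1 summit is the one at the cox-5B 5′ end. For hsp-1 the shares were 1.74%, 1.29% and 2.64%, and for cyc-1 they were 3.28%, 3.62% and 5.58%. These 3 genes were within the upper 6% of genes in each list, and tba-2 was too, with 3.45%, 4.57% and 3.08%. For tbb-1 the shares were 5.60%, 17.5% and 4.71%. For tbb-2 they were 53.6%, 8.91% and 50.8%. All these shares are of 19973 genes, so a gene with no summit counts as lower, and 12902 genes had a summit for both replicates. Against only the genes with a summit, tbb-2 lay below the median for both replicates (24.6) and in replicate 2 (14.3). It lay above the median in replicate 1 (27.3). Among genes with a summit the median of the strongest signal was 32.1 for both replicates, 18.7 in replicate 1 and 16.5 in replicate 2, while the medians over the 6 genes were 63.8, 33.6 and 31.0. The first of these is read as a description only, since the choice of genes rests on it, and the replicate lists come from the same libraries.

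**Figure D3:**
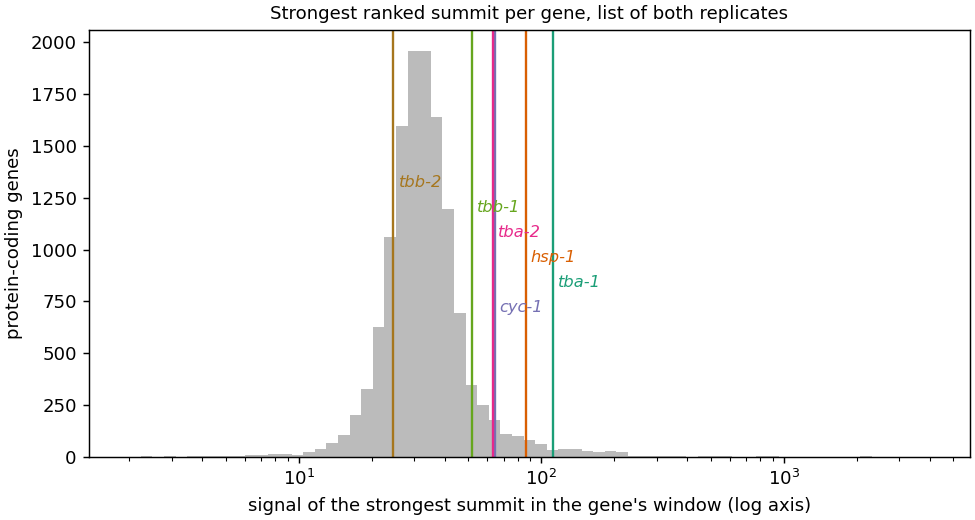
Number of protein-coding genes by the signal of their strongest summit in the ranked list for both replicates, with the 6 genes marked. tba-1 (112, by its summit at the cox-5B 5′ end) and hsp-1 (86.4) lie in the right tail, cyc-1, tba-2 and tbb-1 between 51.8 and 64.2, and tbb-2 (24.6) below the median of 32.1.

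**Figure D4:**
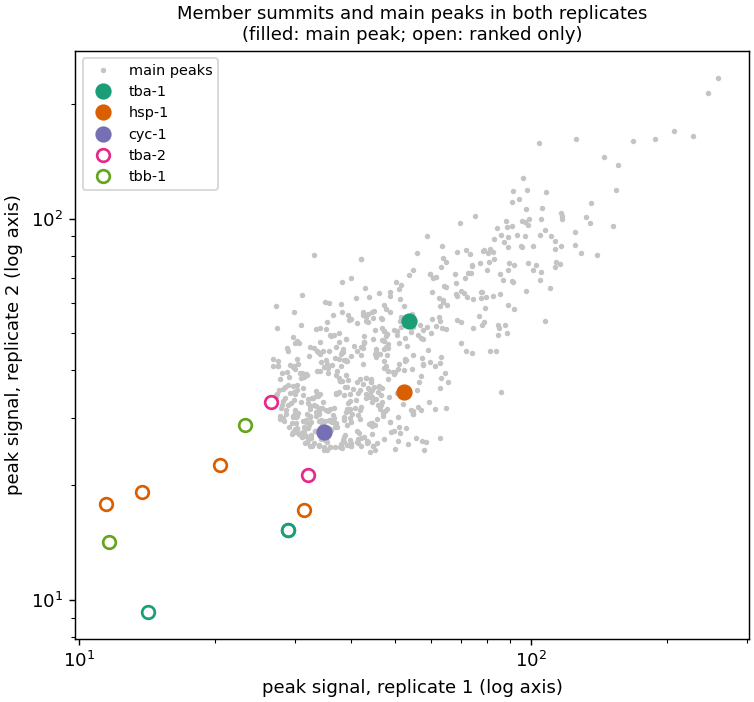
Signal in replicate 2 against signal in replicate 1 for main peaks and for the 14 summits of the 6 genes that had a ranked peak in both replicates, with main peaks of the genes filled and the others open. The main peak of tba-1 sits at 53.7 and 54.0, and 2 of the weaker tba-1 summits fall on 1 point because they overlap the same replicate peaks. The replicate lists differ in median signal (16.0 and 14.1), so near equal values do not mean equal strength.

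Across the 6 genes the list for both replicates held 18 summits, of which 16 overlapped a ranked peak of replicate 1, 15 one of replicate 2, and 14 one of each. The ranked lists of replicate 1 and replicate 2 held 21 and 19 in the same windows. Intergenic here means outside protein-coding genes, so a summit there that lies in a non-coding RNA gene counts as intergenic too. Of the 18, 9 were intergenic, 7 in coding exons and 2 in introns, beside 36.8%, 24.9% and 33.0% of all ranked summits. All 3 main summits of the genes were intergenic, as were 64.0% of the main list, in which 1.74% lay in coding exons. Counting summits within 500 bp of an own 5′ end, 2 of the 6 genes, hsp-1 and cyc-1, had a main summit, against 1.67% of all genes. Nothing is read from this share, since the main list chose both genes. In the ranked list, 5 of the 6 had a summit 1 to 400 bp upstream, all but tbb-2, against 15.0% of all genes. Among the 5, hsp-1 and cyc-1 were counted by those same main summits. In the second ranked list all 6 had one, tbb-2 included, against 13.7% of all genes, and the distance of 400 bp was set after the values were seen. That list also held 2 weak summits absent from the longer one, in a coding exon of hsp-1 1550 bp downstream (25.5, rank 16291) and in an intron 904 bp upstream of tba-2 (27.9, rank 13272).

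A summit in the window of a gene was often nearer to another gene. Only 5′ ends of protein-coding genes were counted here. For tba-1 the nearest to the main summit was that of cox-5B, and for hsp-1 and cyc-1 it was their own. The 5′ end of the non-coding RNA gene F26D10.23, 546 bp upstream of that of hsp-1, was nearer to the hsp-1 main summit than hsp-1's own. Over the whole main list, 475 of 761 pairs of gene and summit (62.4%) had the gene's own 5′ end as the nearest among protein-coding genes. No tRNA, snoRNA or snRNA gene lay within 500 bp of any of the 3 main summits, whereas 34.5% of main summits did, beside 1.57% of lower ranked summits, meaning those outside every thresholded list.

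Within 100 bp of the 18 summits, neither the exact nor a relaxed form of the COE motif, the sequence known for this factor family, was found on either strand. The exact form was found at 2.38% of main summits and 0.315% of lower ranked summits, and the relaxed form at 3.33% and 0.644%, so its absence from a few windows is the common case. No heat shock element was found at the hsp-1 summits or any other, against 1.43% and 1.27%, and no tRNA box B was found, against 24.2% and 1.29%. The words TAATTA (4.12% of main and 6.93% of lower ranked summits) and CAGCTG (5.07% and 4.65%) were likewise at none of the 18.

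GAGAGA was found at the main summit of hsp-1, at the strongest summit of tba-2 and at the weak tba-1 summit 411 bp upstream, and it was in 29.2% of main and 14.3% of lower ranked windows. TGATAA was found at the hsp-1 main summit, as it was in 7.61% of main and 14.3% of lower ranked windows. TATAAA was found at the cyc-1 main summit and at 2 weaker hsp-1 summits, and in 12.2% and 15.8% of windows. GAGAGA was thus more frequent in main than in lower ranked windows, TGATAA and TATAAA were less frequent, and none was shared by the 3 main summits. The GC content around the strongest summits was 51.2% for tba-1, 49.8% for tbb-2, 41.3% for tba-2, 38.3% for hsp-1, 37.8% for cyc-1 and 36.3% for tbb-1. Main summits had a median of 45.8% (quartiles 40.8 to 49.8) and lower ranked ones 39.3%, so tba-1 was above the upper quartile of main summits and hsp-1 and cyc-1 below the lower.

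The tubulin genes are related in their coding sequence, and the strongest summits of all 6 genes lay in sequence that occurs once in the genome. At the strongest summit of all 6 genes, 100% of 50-base words were unique, as they were at 62.0% of all main and 88.7% of all lower ranked summits. In the coding sequence the shares were 99.1% for hsp-1, 99.3% for tbb-2 and 100% for the other 4. The hsp-1 summit in a coding exon 116 bp downstream had 90.1% unique words, and the handling of reads with several places in the genome is not stated in the labels.

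Protein-coding genes with the most similar main peaks were named by the distance in log2 signal over 3 lists (main, replicate 1, replicate 2) among 621 main peaks with a value in each, for genes with a 5′ end within 500 bp. For tba-1 they were K05C4.7, with signals of 113, 54.7 and 56.1, and C06A5.3, with 110, 54.8 and 52.0. For hsp-1 they were cux-7 (86.8, 52.5 and 34.9) and dvc-1 (85.9, 50.5 and 34.8). For cyc-1 they were copz-1 (63.9, 34.4 and 26.4) and idpa-3 (63.7, 35.1 and 26.3). The distance was smallest for cux-7 at 0.0143 and between 0.0539 and 0.066 for the other 5, and the tRNA, snoRNA or snRNA gene closest to any of these summits was 21699 bp away.

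Among the 16 tubulin genes, 3 had a main summit, and the median strongest signal was 36.5 over the 14 with a ranked summit. Besides tba-1 these were tba-7, an α-tubulin gene with a summit of 131 in its own intron 298 bp downstream, and tbg-1, the γ-tubulin gene, with 79.2 at 840 bp upstream but 109 bp from rpac-19. Among 11 genes of the heat shock 70 family, 4 had one, with a median of 58.4 over 9 genes: hsp-1, T24H7.2 (110, in its intron 30 bp from the snoRNA gene T24H7.6), and F44E5.4 and F44E5.5, which share 1 summit of 134 between them. Among 13 genes of complex III and cytochrome c, 4 had one, with a median of 43.1 over 12 genes, namely cyc-1, ucr-11 (112), T27E9.2 (68.7) and the cytochrome c gene cyc-2.1 (136). The summits of the last 3 were nearest to tre-1, ant-1.1 and Y17G9B.5, at 32, 37 and 181 bp. In all, 11 of the 40 genes in these 3 families had a main summit, against 3.59% of all genes. Nothing is read from this, since the 11 include the 3 genes chosen by this list. Counting 5′ ends of protein-coding genes only, 5 of the 11 had their own nearest to the summit and 6 had that of another gene. There were 10 distinct summits among them. Over the whole main list the gene's own 5′ end was the nearest, by the same count, in 62.4% of pairs of gene and summit.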

How the data were processed

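Peak lists of 2 biological replicates were used, on assembly ce11 per the labels. The authors deposited, for both replicates together, 2 ranked and 2 thresholded lists, and 1 of each kind for each replicate. Each peak carries a signal that the authors deposited, of unstated unit, and the deposited ranked lists give the IDR as −log10. The sources used here do not name the aligner, the caller or the settings of either. The lists give no read counts, so no counting interval was computed.

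Summits, 1-based, were placed against Ensembl release 115 genes. Nearest 5′ ends, and places in exons, in introns or between genes, were taken from protein-coding genes only. Every peak end on the 6 nuclear chromosomes lay within the WBcel235 chromosome lengths. Windows, shares of genes, matches between lists (overlap of at least 1 bp) and 9 sequence motifs within 100 bp were computed with python 3.11.15, pandas 2.3.3 and numpy 2.4.6. The assignment of summits to gene windows and the count of unique words were checked on simulated data; the motif search was not. The 6 genes, family lists and alternatives were chosen with earlier results of these data known. Named genes are the 6, genes in their windows or nearest their main summits, the 2 genes most like each member with a main summit, and family genes with a main summit.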

Additional observations from a re-analysis of the deposited data

How the results depend on the processing

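The main list gave 3 of the 6 genes and 3.59% of all genes. Without replicate 1 and without replicate 2, meaning the thresholded list of the other replicate, 1 of the 6 genes had a summit (tba-1 and hsp-1 respectively), the range being 1 to 1, and the share of all genes was 2.06% in each, from 2.06 to 2.06. The share was 1.86% with only main peaks above the median signal (tba-1 and hsp-1). It was 1.67% within 500 bp of an own 5′ end and 2.24% counting only the nearest protein-coding 5′ end (hsp-1 and cyc-1 in both). These settings keep fewer peaks or shorter windows by construction. The second thresholded list (4 genes with tba-2, 3.52%), a window of 1000 bp upstream (2 genes, without tba-1, 2.90%), counting peaks that overlap the window (3 genes, 3.85%) and leaving out peaks near tRNA, snoRNA or snRNA genes (3 genes, 2.57%) moved neither count by more than 1.5 times. Chosen after seeing the data, the second ranked list gave 6 genes with a summit 1 to 400 bp upstream, against 5 in the longer list. With 2 replicates, no control library and no read counts, peak strength has no error beyond the spread of the replicates.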

Other observations

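The summit shared by F44E5.4 and F44E5.5, divergent genes of the heat shock 70 family on chromosome II, had signals of 134 for both replicates, 64.3 in replicate 1 and 66.7 in replicate 2. It lay 133 bp from the 5′ end of F44E5.4 and 218 bp from that of F44E5.5, and 100% of 50-base words around it were unique. Within 100 bp of it, 7 matches to the heat shock element were found, overlapping ones included, whereas 1.43% of main summits held any. The motif was looked up at this summit after its values were seen, and its part in the peak was not tested.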
